A study of Mus musculus with 13 samples.

Results

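The circadian clock genes described here were Arntl, Clock, Npas2, Per1, Per2, Per3, Cry1, Cry2, Dbp and Nr1d1. They were taken from the table of pancreas expression by their Entrez gene identifiers, with no filter on their values, and all 10 were found among the 23366 genes of the table. The list itself was chosen with earlier results of these data known. Values are log2 RPKM, the logarithm of read density, which is scaled to transcript length and to the total of mapped reads. They were then quantile normalized, which gives all mice nearly the same distribution of values. Levels can be compared between genes, and between mice on this normalized scale, and a difference of 1 is a doubling.

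Whole pancreas was sequenced in 13 female mice of the reprogrammable i4F-B strain, with 1 library per mouse. All groups carried the same transgene, a cassette of the factors Oct4, Sox2, Klf4 and Myc (OSKM) that doxycycline switches on, that is present in all tissues and that sits inside the Pparg gene. The 4 young mice (13 weeks) and the 5 old mice (55 weeks) received no doxycycline, and the 4 old-OSKM mice received doxycycline for 7 days and then recovered for 2 weeks, up to a labelled age of 58 weeks. There was no group of old mice given doxycycline without the cassette, so doxycycline and OSKM cannot be told apart. The paper gave doxycycline in drinking water with sucrose and does not say whether untreated mice had sucrose. By their labels the old-OSKM mice were also older than the old mice (58 and 55 weeks). Sucrose and this gap in age cannot be separated from OSKM here. The paper shows SOX2, a factor of the cassette, in acinar cells and not in most endocrine cells, after doxycycline was given by another route and for a shorter time than here. In RNA from a whole organ, fewer cells of a type and less RNA per cell cannot be told apart either. Summed RPKM of 8 acinar marker genes lay between 8693 and 9268 in every mouse, a high level that goes with the tissue label. Quantile normalization gives genes of the same rank the same value, as for Ctrb1 at 11.11 log2 RPKM in each mouse. The closeness of these sums therefore does not measure the purity of the tissue. The sum of 6 liver genes was 69.2 in young mouse 3 and 3.19 to 7.94 in the 12 other mice. Read totals per mouse are unknown. The hour of day at which the tissues were taken is not given in the sources used here.

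The circadian clock is a feedback loop of transcription that runs in nearly every cell and repeats about once a day. BMAL1, the product of Arntl, pairs with CLOCK or its relative NPAS2 and switches on genes that carry an E-box, among them the Per and Cry genes, whose proteins return to the nucleus and block that pair. A second loop runs through REV-ERB alpha, the product of Nr1d1, which represses Arntl through RORE elements, and DBP carries the rhythm on to genes with a D-box. In a running clock, Arntl and Npas2 therefore peak at a different time of day from Dbp, Nr1d1 and the Per genes. In the pancreas, clocks are known in both acinar and islet cells.

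The DNA elements that join the members were searched in RefSeq promoter windows of GRCm38.p6, the same assembly as mm10, from 250 bases before to 50 bases after a transcription start. Of the 10 members, 9 had at least 1 window, and there were 13 windows in all. Both strands were searched for the E-box CACGTG, the E-prime box CACGTT, the D-box TTATGNAA and the RORE core TAGGTCA, and no letters are shared between these motifs in the matches found. Of all 32851 windows of this length, 7.15% held the E-box, 4.68% the E-prime box, 3.38% the D-box and 2.61% the RORE core. Matches lay in windows of 6 members, Arntl, Per1, Per3, Cry1, Cry2 and Nr1d1. A match of letters is a description and does not show that a factor binds.

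The 4 sequences shown here stand for the steps of the loop: a RORE core in Arntl, the paired E-box elements of a repressor (Cry1), the D-boxes of another (Per3), and a promoter with one of each (Per1). Capitals mark the matches, and each sequence reads 5′ to 3′ on the strand of the gene. The Arntl site lies at chr7:113207529-113207558 on the plus strand, with its first matching base at position 31, counted from the start as position 1, in the second of the 2 Arntl windows. The windows of the other genes are the 250 bases before the start, at chr10:85185055-85185304 (minus strand) for Cry1, chr4:151044666-151044915 (minus strand) for Per3, and chr11:69098699-69098948 (plus strand) for Per1.
Arntl: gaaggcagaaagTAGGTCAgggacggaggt
Cry1: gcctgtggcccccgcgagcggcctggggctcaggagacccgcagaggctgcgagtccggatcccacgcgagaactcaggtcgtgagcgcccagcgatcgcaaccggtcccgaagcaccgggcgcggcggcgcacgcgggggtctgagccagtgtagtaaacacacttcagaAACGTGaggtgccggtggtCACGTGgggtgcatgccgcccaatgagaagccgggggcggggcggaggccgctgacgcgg
Per3: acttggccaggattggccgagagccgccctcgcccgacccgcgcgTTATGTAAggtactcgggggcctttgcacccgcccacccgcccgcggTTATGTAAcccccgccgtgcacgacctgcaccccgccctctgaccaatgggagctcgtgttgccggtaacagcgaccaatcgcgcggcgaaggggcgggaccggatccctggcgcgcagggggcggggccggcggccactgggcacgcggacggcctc
Per1: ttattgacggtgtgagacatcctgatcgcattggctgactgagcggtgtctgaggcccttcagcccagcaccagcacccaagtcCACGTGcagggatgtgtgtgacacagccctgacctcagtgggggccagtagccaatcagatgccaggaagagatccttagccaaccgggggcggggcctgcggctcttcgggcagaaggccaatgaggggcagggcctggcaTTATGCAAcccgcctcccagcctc
In Cry1 the E-box began 60 bases before the start, and an E-prime box, read on the opposite strand, began 79 bases before it. In Per3 both D-boxes, at 205 and 158 bases before the start, had the same 8 letters, and in Per1 the E-box began 166 bases and the D-box 24 bases before the start. Cry2 and Nr1d1 each held 1 E-prime box, at 166 and 28 bases before their starts.

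Arntl (Entrez 11865, chromosome 7), the partner on which the activating complex depends, had values in young mice of 1.36, -0.84, 1.52 and -1.99, in old mice of 1.44, 1.52, 1.44, 1.74 and 1.22, and in old-OSKM mice of 1.45, 1.67, 0.98 and -2.72. The 5 old mice lay within 0.52 of each other, whereas young mice 2 and 4 and old-OSKM mouse 4 were far below all the others. The 3 low values were separated from the 10 higher ones by a gap of 1.82, which was 40.9% of the whole range of the gene. On the linear scale Arntl ran from 0.151 to 3.35 RPKM.

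Npas2 (Entrez 18143, chromosome 1), which can take the place of CLOCK beside BMAL1, showed the same 3 mice apart by the widest gap of all members, 2.49 log2 units. Its values were -0.96, -4.48, -0.79 and -3.45 in young mice, -0.02, -0.04, 0.24, 0.03 and 0.09 in old mice, and -0.11, -0.11, -0.67 and -4.64 in old-OSKM mice. On the linear scale young mice 2 and 4 and old-OSKM mouse 4 were at 0.045, 0.091 and 0.040 RPKM, and the others at 0.51 to 1.18. At such low levels a small difference in RPKM makes a wide gap in log2 units. Every old mouse lay above every young and every old-OSKM mouse, so here the old group did not overlap with either of the other groups. Clock (Entrez 12753, chromosome 5), whose product is the usual partner of BMAL1, moved far less. Its values were 2.07, 1.67, 2.06 and 1.37 in young mice, 1.88, 1.82, 1.96, 1.79 and 2.08 in old mice, and 1.81, 1.83, 1.87 and 1.07 in old-OSKM mice. The 3 mice that were low in Arntl were the 3 lowest in Clock as well, but the whole range of Clock was 1.00, against 4.47 for Arntl and 4.87 for Npas2.

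**Figure D1:**
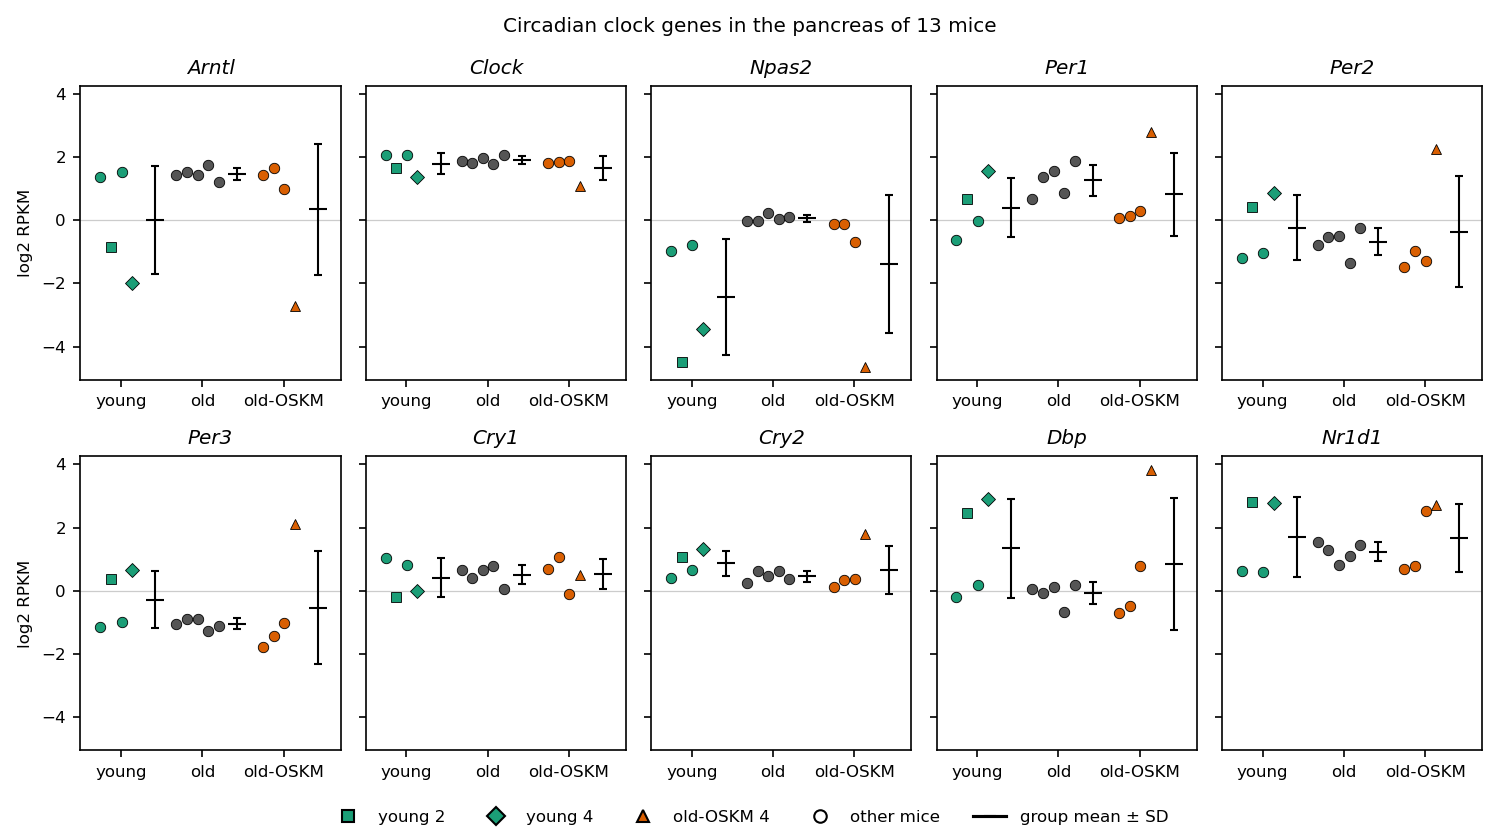
log2 RPKM (vertical axis) of each clock gene in the 4 young, 5 old and 4 old-OSKM mice. Each point is 1 mouse, squares and diamonds are young mice 2 and 4, triangles are old-OSKM mouse 4, and bars give the group mean ± SD. In Arntl and Npas2 the 3 special symbols lie below all circles, and in Dbp they lie above all circles.

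Among the repressors, Per2 and Per3 showed the opposite order. Per2 (Entrez 18627, chromosome 1), a scaffold of the repressor complex, had values of -1.20, 0.40, -1.04 and 0.87 in young mice, -0.77, -0.54, -0.49, -1.36 and -0.25 in old mice, and -1.47, -0.97, -1.28 and 2.26 in old-OSKM mice. Per3 (Entrez 18628, chromosome 4), the member of the family that the loop is known to need least, had values of -1.15, 0.37, -0.98 and 0.64 in young mice, -1.04, -0.89, -0.89, -1.28 and -1.11 in old mice, and -1.78, -1.44, -1.03 and 2.11 in old-OSKM mice. In both genes young mice 2 and 4 and old-OSKM mouse 4 were the 3 highest of all 13, and old-OSKM mouse 4 stood apart by the widest gap, of 1.39 in Per2 and 1.47 in Per3. Per3 was the steadier of the pair in old mice, with an SD of 0.16 (n = 5) against 0.42 for Per2.

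Per1 (Entrez 18626, chromosome 11), the Period gene that also answers quickly to glucocorticoids and other signals, did not follow this division over all mice together. Its values were -0.62, 0.67, -0.02 and 1.56 in young mice, 0.68, 1.36, 1.55, 0.87 and 1.86 in old mice, and 0.08, 0.13, 0.28 and 2.78 in old-OSKM mice. The highest value was again that of old-OSKM mouse 4, but old mice held most of the places below it and the low end was shared by young mouse 1, young mouse 3 and the 3 other old-OSKM mice. Within their own groups, young mice 2 and 4 and old-OSKM mouse 4 were still the highest.

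The cryptochromes, which bind the BMAL1 complex directly and silence it, varied least among the repressors. Cry2 (Entrez 12953, chromosome 2) had values of 0.41, 1.08, 0.67 and 1.32 in young mice, 0.23, 0.62, 0.47, 0.64 and 0.37 in old mice, and 0.13, 0.33, 0.38 and 1.79 in old-OSKM mice. The same 3 mice were its highest. Cry1 (Entrez 12952, chromosome 10) had values of 1.05, -0.20, 0.81 and -0.01 in young mice, 0.65, 0.39, 0.66, 0.79 and 0.04 in old mice, and 0.68, 1.06, -0.11 and 0.50 in old-OSKM mice. Young mice 2 and 4 were low in Cry1, old-OSKM mouse 3 lay between them and old-OSKM mouse 4 was in the middle of its group, so Cry1 did not set the 3 mice apart.

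Dbp (Entrez 13170, chromosome 7), the D-box binding factor of the clock's output, was the mirror image of Arntl. Its values were -0.19, 2.47, 0.17 and 2.91 in young mice, 0.05, -0.07, 0.12, -0.68 and 0.18 in old mice, and -0.72, -0.48, 0.80 and 3.83 in old-OSKM mice. On the linear scale this was 0.608 to 14.2 RPKM within the old-OSKM group alone. Nr1d1 (Entrez 217166, chromosome 11) had values of 0.61, 2.80, 0.58 and 2.78 in young mice, 1.54, 1.30, 0.82, 1.09 and 1.45 in old mice, and 0.69, 0.79, 2.52 and 2.70 in old-OSKM mice. Its widest gap, of 0.98, separated 4 mice rather than 3, because old-OSKM mouse 3 was nearly as high as old-OSKM mouse 4.

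Over the 10 members, young mice 2 and 4 and old-OSKM mouse 4 were together the 3 lowest for 3 genes (Arntl, Clock and Npas2), the 3 highest for 5 (Per2, Per3, Cry2, Dbp and Nr1d1) and neither for Per1 and Cry1. Of all 23366 genes, 2.71% had these 3 mice as their 3 lowest or 3 highest, 318 as the lowest and 316 as the highest, and among the 8410 genes with a mean log2 RPKM above 0 it was 5.2%. The 3 mice were singled out from the values of these same genes, so the counts describe the pattern and were not tested. The mice came from 2 groups. Their libraries also came from both runs of sample identifiers, since young mouse 4 belongs to the later run with young mouse 3 and old mouse 5, and the other 2 belong to the earlier run.

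**Figure D2:**
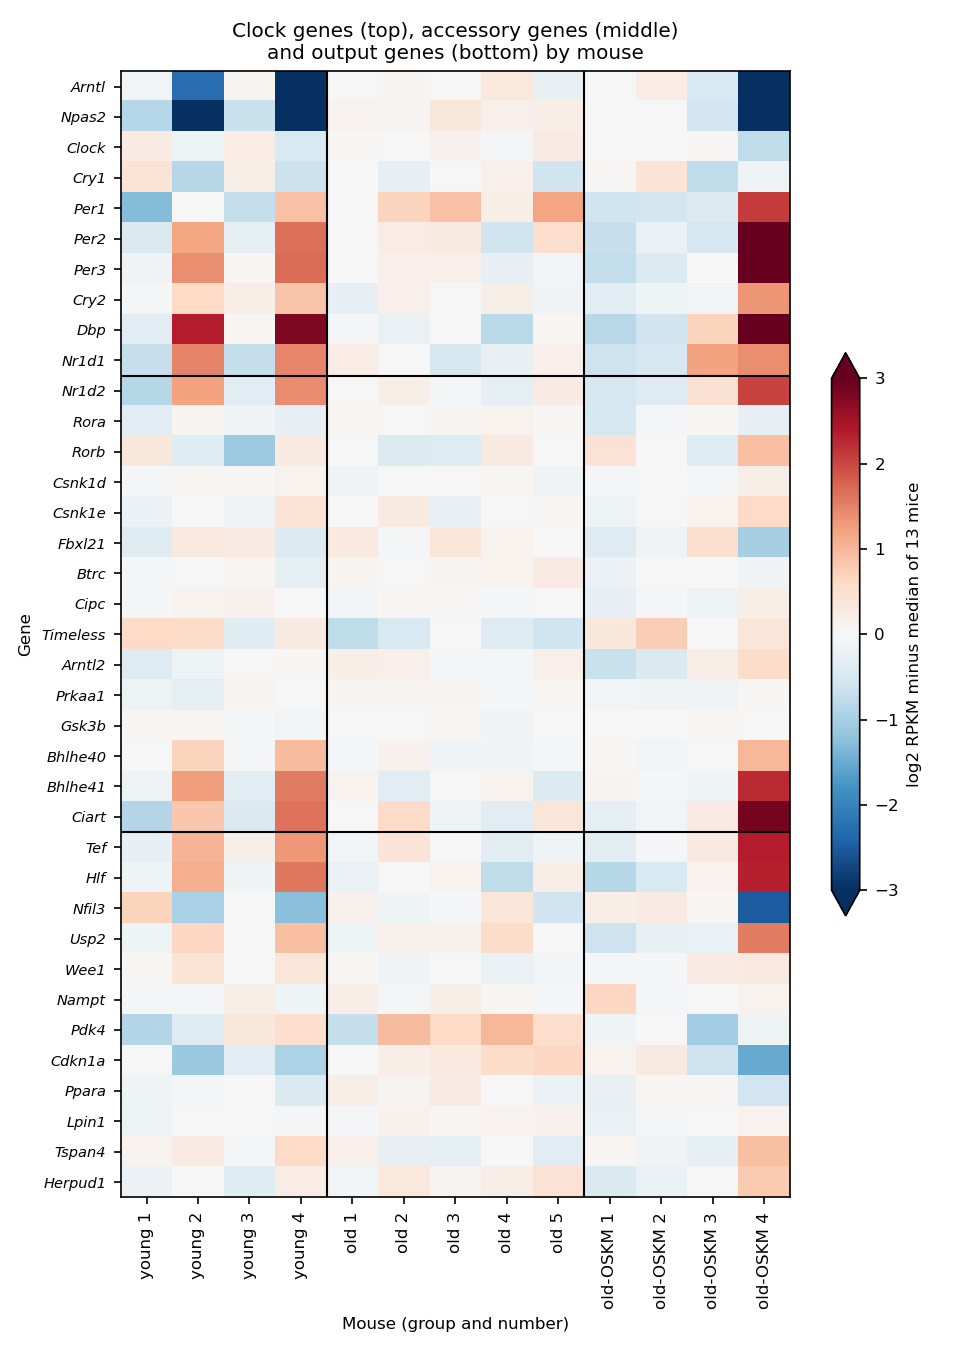
log2 RPKM minus the median of the 13 mice (colour, scale ending at -3 and 3) for the 10 clock genes and for accessory and output genes of the clock (rows) in each mouse (columns, by group and number). Red is above and blue below the gene's median, and the columns of young 2, young 4 and old-OSKM 4 carry most of the strong colours.

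The other genes of the pathway were described from fixed lists of 17 accessory genes and 12 output genes. Of these 29, the 3 mice were the highest for 10 and the lowest for 3. The repressors that share E-box targets with the clock were among the first: Bhlhe40, whose product competes with the BMAL1 complex, was at 1.34, 1.61 and 1.67 in young mouse 2, young mouse 4 and old-OSKM mouse 4, and at 0.57 to 0.79 in the 10 others. Tef and Hlf, which encode the closest relatives of DBP, followed it. Tef was at 2.05, 2.31 and 3.37 in the 3 mice and at 0.67 to 1.39 in the others. The genes for which the 3 mice were lowest included Nfil3 and Cdkn1a. Nfil3 encodes the repressor of D-boxes and was at -0.04, -0.30 and -1.55 in the 3 mice. Cdkn1a, which encodes a cell cycle inhibitor, was at 0.62, 0.78 and 0.21. Csnk1d, Bhlhe41, Ciart, Usp2, Wee1, Tspan4 and Nr1d2 made up the rest of the genes for which these mice were highest. Btrc and Gsk3b, which act in the breakdown of clock proteins, were not among the 13, and the whole range of Gsk3b over all mice was 0.16.

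Genes whose pattern was most like that of Arntl over all 13 mice were ranked by Pearson's r among the 8396 genes that have a symbol and a mean log2 RPKM above 0, which leaves out Npas2, Per2 and Per3. The mice fall into separate clusters, so the coefficient only orders genes and has no p-value. The highest were Rnf125 (0.976), Kif5c (0.951), Dtx1 (0.951), Ypel2 (0.95) and Sgpp1 (0.944). Among the lowest were Bhlhe40 (-0.981), Dbp (-0.978), Cd300lg (-0.95) and Tef (-0.948). Among the other members ranked, Clock was 45 from the top and Cry1 2533, whereas Cry2 was 15 from the bottom, Nr1d1 192 and Per1 1226. Without the 3 mice the coefficients were smaller for all of the genes named at either end, at 0.768 for Kif5c, 0.493 for Rnf125, -0.243 for Bhlhe40 and -0.791 for Dbp over the 10 others. For Clock and Cry2 the sign turned, from 0.895 to -0.348 and from -0.92 to 0.315. Cry1 (0.762), Nr1d1 (-0.677) and Per1 (-0.0364) kept their signs over these 10 mice.

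The spread between mice of the same group, pooled over the 3 groups, was large for most members. The SD within groups was 1.56 for Npas2, 1.47 for Arntl, 1.45 for Dbp, 1.15 for Per2, 1.11 for Per3, 0.94 for Per1 and 0.93 for Nr1d1, against a median of 0.19 over all genes. These 7 members lay above the 99th percentile of all genes, Arntl for example at the percentile of 99.88. In old mice alone, which include none of the 3 mice that stood apart, their SD ran from 0.11 (Npas2) to 0.49 (Per1). It was 0.92 (Per3) to 1.84 (Npas2) in young mice and 1.08 (Nr1d1) to 2.18 (Npas2) in old-OSKM mice. Cry2 (0.48), Cry1 (0.47) and Clock (0.29) lay lower, at percentiles of 85.93, 84.58 and 66.19. Among the genes with a mean above 0, only 2 had a larger SD than Arntl and 3 a larger one than Dbp.

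**Figure D3:**
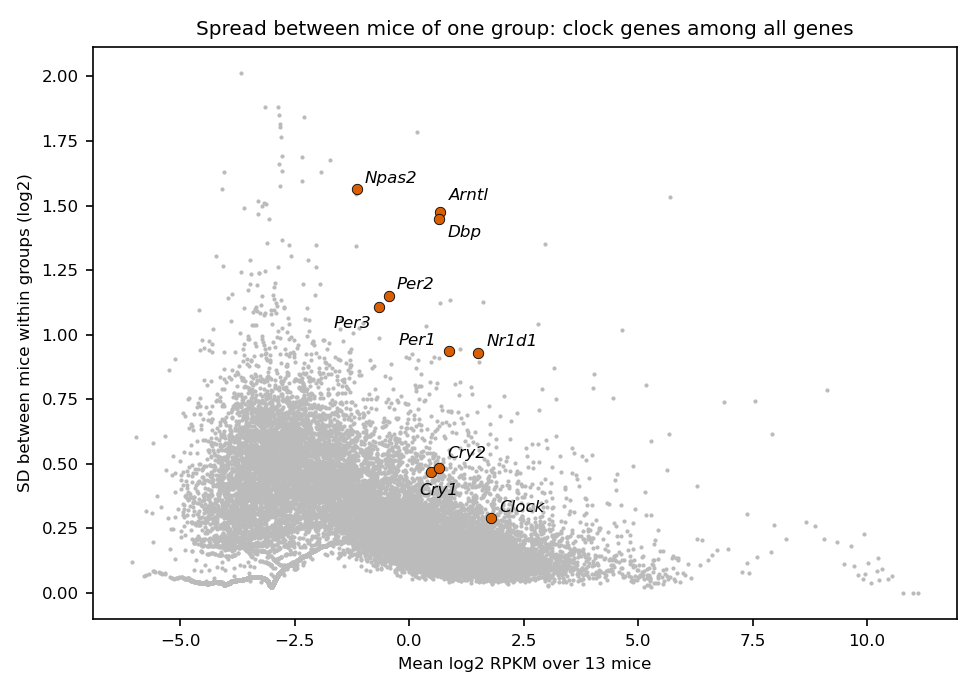
SD between mice within groups (vertical axis, log2 units) against the mean log2 RPKM over 13 mice (horizontal axis), with 1 grey point per gene and the clock genes in orange. Npas2, Arntl and Dbp stand well above the cloud of genes of like mean, with an SD of 1.56, 1.47 and 1.45, and Clock lies inside it at 0.29.

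Old and young mice were compared to ask whether the clock genes differ with age. No member passed the thresholds, a raw p under 0.01 together with more than a 1.5-fold change (0 of 10), where 0.886% of all genes passed. Npas2 had the largest difference, with a mean of 0.06 ± 0.11 (SD, n = 5) in old mice and -2.42 ± 1.84 (SD, n = 4) in young mice. The difference was 2.48 ± 0.98 (SE), and the p-value adjusted over all genes by limma and Benjamini-Hochberg was 0.785. Npas2 was also the 1 member with a raw p under 0.05, which 5.52% of all genes had. It was the only member of the 10 whose old and young groups did not overlap, which held for 2.71% of all genes. Two-sided exact permutation tests of each of the 10 members, not adjusted over genes, gave p under 0.05 for Npas2 only (exact p = 0.00794). This is the smallest p that 4 against 5 mice allow, and it restates that the groups do not overlap.

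The 9 other members had differences between old and young mice from -1.42 (Dbp) to 1.46 (Arntl), and each had an adjusted p of 1 by limma. The intervals were wide for these genes. The 95% interval ran from -0.57 to 3.49 for Arntl and from -3.42 to 0.58 for Dbp, so these mice do not show whether Arntl and Dbp differ with age. For Clock the interval, from -0.29 to 0.52, was much narrower. The median difference of the members was -0.15, and that of all genes was 0.00.

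**Figure D4:**
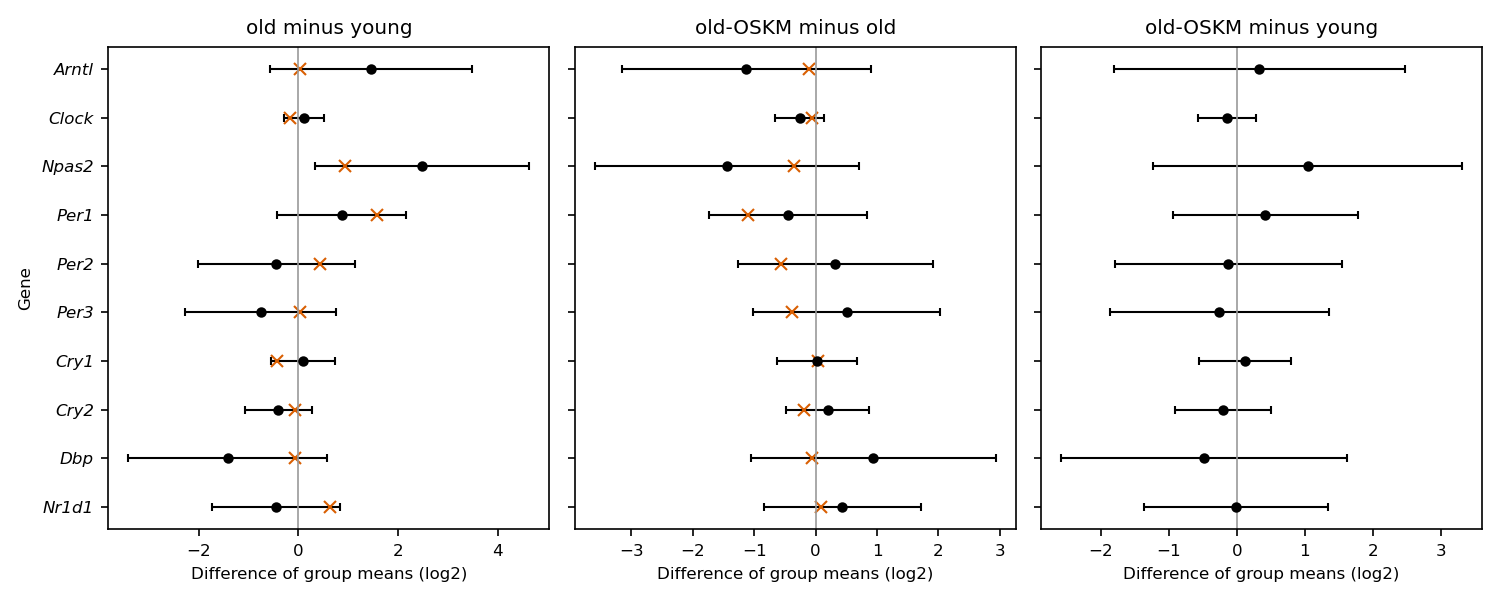
Differences of group means in log2 units (horizontal axis) for each clock gene, with 95% intervals from limma over all 13 mice (black), in the order old against young, old-OSKM against old, and old-OSKM against young. Orange crosses in the first 2 panels give the difference without young mice 2 and 4 and old-OSKM mouse 4, which for Arntl in old minus young is 0.03 in place of 1.46.

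Old-OSKM and old mice were compared to ask whether the clock genes differ after the cassette had been induced and switched off again. Again 0 of 10 members passed both thresholds, where 0.753% of all genes did. The differences ran from -1.44 ± 0.98 (SE) for Npas2 and -1.13 ± 0.93 for Arntl to 0.94 ± 0.91 for Dbp, with adjusted p-values by limma from 0.608 to 0.975. No member had a raw p under 0.05, which 8.07% of all genes had. Npas2 was the 1 member without overlap between the groups, at -0.11 or below in old-OSKM mice and at -0.04 or above in old mice, and the same held for 1.73% of all genes. Of the two-sided exact permutation tests of the 10 members, again only that of Npas2 had p under 0.05 (exact p = 0.00794, the smallest possible). The 5 old mice enter both comparisons of Npas2, so these are not independent of each other. The median difference of the members was 0.11, beside -0.04 over all genes.

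Old-OSKM mouse 4 decided several of these directions. Without it, old-OSKM minus old came to -0.56 for Per2, -0.38 for Per3, -0.18 for Cry2 and -0.05 for Dbp, each of the opposite sign to the value with all mice. Arntl went from -1.13 to -0.11 and Npas2 from -1.44 to -0.36. Per1 stood at -1.10 in place of -0.45. Npas2 between old and young mice then passed both thresholds, with the same difference of 2.48 and a smaller SE of 0.68, since the spread is shared by all groups, and its adjusted p by limma was 0.327. In that fit 0.984% of all genes passed.

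Between old-OSKM and young mice, differences ran from -0.48 (Dbp) to 1.04 (Npas2). No member passed the thresholds (0 of 10, against 0.625% of all genes) and none was without overlap, which 1.90% of all genes were.

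Both groups that hold any of the 3 mice are affected by them, so the contrasts were repeated without young mice 2 and 4 and old-OSKM mouse 4, on 2 young, 5 old and 3 old-OSKM mice. These mice were left out because of the values of the genes compared, so the results describe the 10 remaining mice and carry no independent weight. Between old and young mice, Npas2 and Per1 passed both thresholds (2 of 10, where 0.860% of all genes passed). Npas2 was at -0.96 and -0.79 in the young mice left and at -0.04 to 0.24 in old mice, a difference of 0.94 ± 0.16 (SE) with an adjusted p by limma of 0.173. Per1 was at -0.62 and -0.02 in these young mice and at 0.68 to 1.86 in old mice, a difference of 1.58 ± 0.31 with an adjusted p of 0.27. Arntl differed by 0.03 and Dbp by -0.07 in these mice, far less than with all mice. Between old-OSKM and old mice, Per1 passed both thresholds (1 of 10, where 0.680% of all genes passed), at 0.08, 0.13 and 0.28 in old-OSKM mice, with a difference of -1.10 ± 0.27 and an adjusted p of 0.635.

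Among the 10 mice without the 3 that stood apart, the members were compared with each other in all 45 pairs by Pearson's r. Permutation p-values came from 100000 resamples. The 3 mice were left out because of the values of the genes compared, so these p-values carry no independent weight. Mice were permuted across groups, except where each was taken relative to its group, so differences between groups also enter these p-values. No pair had an adjusted p under 0.05, and the lowest was 0.0922 by permutation. A raw permutation p under 0.05 was reached by 9 pairs. Cry1 and Nr1d1 had the largest coefficient, r = -0.836 (permutation p = 0.00213) and a Spearman rho of -0.83 (permutation p = 0.00431). Without the 2 mice farthest from the median of Cry1 it was -0.597 (permutation p = 0.121). Leaving out the most extreme mice narrows the range of Cry1, so this fall cannot show whether the coefficient rests on them. With each mouse left out in turn, r for Cry1 and Nr1d1 lay between -0.876 and -0.701. Arntl and Dbp had r = -0.791 (permutation p = 0.00827) and rho = -0.636 (permutation p = 0.0545), and r was -0.4 without the 2 mice farthest in Arntl. For Npas2 and Per1, r was 0.796 (permutation p = 0.00673) and rho was 0.915 (permutation p = 0.00057), which gave the only adjusted p under 0.05 among the rank correlations (0.0256). By Pearson's r, these pairs shared the lowest adjusted permutation p of 0.0922 with Per1 and Per2 (r = 0.781) and Arntl and Cry1 (r = 0.762). When each mouse was taken relative to its group, r was 0.18 for Npas2 and Per1 (permutation p = 0.468). It was -0.8 for Cry1 and Nr1d1 (permutation p = 0.0815) and -0.83 for Arntl and Dbp (permutation p = 0.0467). For Per1 and Per2 it was 0.708 (permutation p = 0.0537), and for Arntl and Cry1 0.875 (permutation p = 0.0222). None of these stayed under 0.05 after adjustment. Within the 8 of these mice from the earlier run of sample identifiers, r was -0.882 for Cry1 and Nr1d1, -0.836 for Arntl and Dbp, and 0.798 for Npas2 and Per1.

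**Figure D5:**
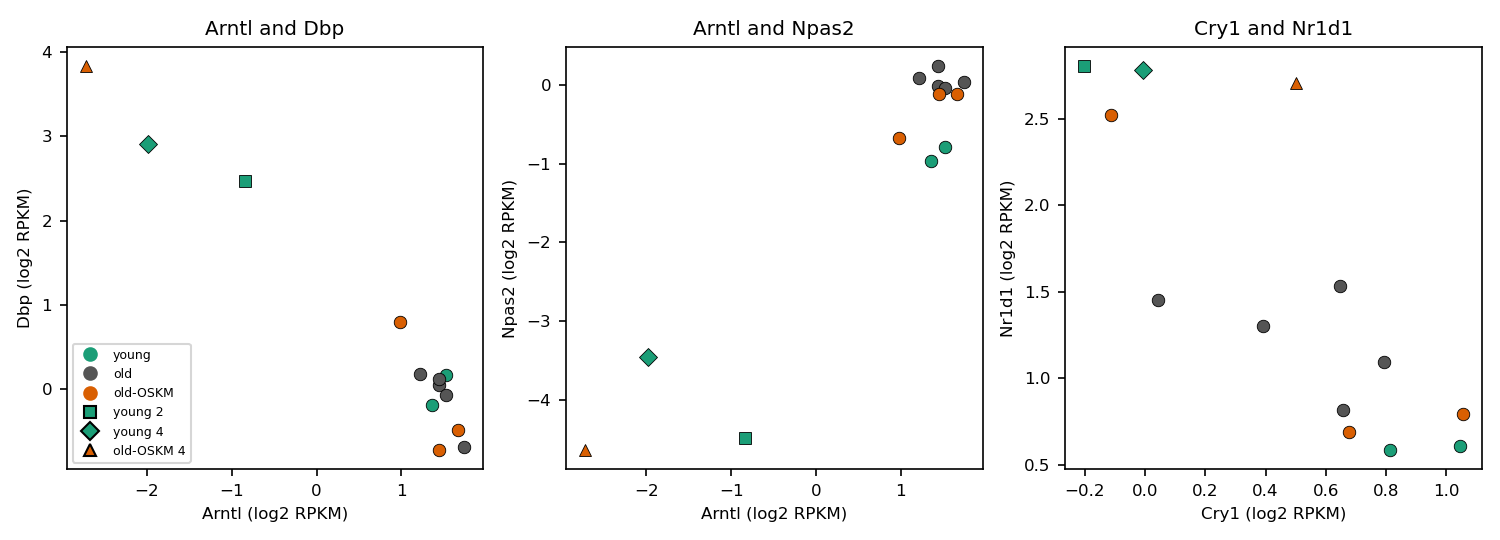
log2 RPKM of Dbp against Arntl, of Npas2 against Arntl, and of Nr1d1 against Cry1, with 1 point per mouse and colours for groups. In the first 2 panels young mice 2 and 4 and old-OSKM mouse 4 lie apart from the other 10, and in the third they do not form a separate cluster.

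In order of level, the old mice, which varied least, had Clock first (1.91 ± 0.11, SD, n = 5), then Arntl (1.47 ± 0.19), Per1 (1.27 ± 0.49), Nr1d1 (1.24 ± 0.29), Cry1 (0.51 ± 0.30), Cry2 (0.46 ± 0.17), Npas2 (0.06 ± 0.11), Dbp (-0.08 ± 0.35), Per2 (-0.68 ± 0.42) and Per3 (-1.04 ± 0.16). Neighbours in this order overlapped, except that all old mice had Clock above the highest Arntl value and the lowest Nr1d1 value above the highest Cry1 value. In young mice the order began with Clock, Nr1d1 and Dbp and ended with Npas2, and in old-OSKM mice it began with Nr1d1, Clock and Dbp and also ended with Npas2. In both of these groups every pair of neighbours overlapped.

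Of the accessory genes, 1 of 17 passed the thresholds in each of the first 2 comparisons, and it was Timeless both times, where 0.886% and 0.753% of all genes passed. Timeless, whose mammalian product is best known for its part in DNA replication, was at -0.92, -0.95, -1.86 and -1.24 in young mice, at -2.28, -1.96, -1.52, -1.89 and -2.11 in old mice, and at -1.16, -0.77, -1.51 and -1.14 in old-OSKM mice. The difference between old and young mice was -0.71 ± 0.22 (SE), with an adjusted p by limma of 0.581, and that between old-OSKM and old mice was 0.80 ± 0.22, with an adjusted p of 0.547. The 5 old mice are shared by both differences. None of the 12 output genes passed. The 2 with the smallest raw p between old and young mice were Cdkn1a, with a difference of 0.92 (adjusted p 0.761 by limma), and Wee1, a mitotic kinase, with -0.28 (adjusted p 0.785). Between old-OSKM and old mice they were Cdkn1a, with -0.77 (adjusted p 0.547 by limma), and Pdk4, a kinase of fuel choice in mitochondria, with -0.80 (adjusted p 0.557). The medians over accessory and output genes were -0.01 and 0.10 between old and young mice.

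Genes that answer to glucocorticoids or to sudden stimuli were listed because Per1 is also such a gene. None of 8 glucocorticoid-responsive genes, Per1 included, and none of 9 immediate early genes passed the thresholds between old and young or between old-OSKM and old mice. The smallest raw p of these lists were those of Junb and Nr4a1 between old-OSKM and old mice, with differences of 0.47 and 0.45 and an adjusted p by limma of 0.547 for both. The summed RPKM of the glucocorticoid-responsive genes was 18.4 to 35.0 in young, 24.6 to 36.3 in old and 19.1 to 56.8 in old-OSKM mice, and old-OSKM mouse 4 was the highest. Young mice 4 and 2 were at 35.0 and 23.9, which ranked 10 and 5 from the lowest of 13. For the immediate early genes old-OSKM mouse 4 (16.5) and young mouse 4 (13.2) were the 2 highest, and young mouse 2 (8.68) ranked 4 from the lowest. Their part in the values of Per1 was not tested.

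Several lists of cell type markers were high in old-OSKM mouse 4. Some of them, but not the beta cell list, were also high in young mouse 4, and young mouse 2 was lower in each of these. Summed RPKM of 7 beta cell genes was 429 in old-OSKM mouse 4, the highest of all, 130 in young mouse 2 and 177 in young mouse 4, within a range of 66.3 to 346.5 in the other mice. For 6 fibroblast and stellate genes it was 69.3 in old-OSKM mouse 4, 51.1 in young mouse 4, 29.8 in young mouse 2 and 18.6 to 38.7 in the others. The sum of 6 endothelial genes was 21.9 and 17.9 in old-OSKM mouse 4 and young mouse 4, 11.8 in young mouse 2 and 9.75 to 12.8 in the others. For macrophage genes it was 30.2, 19.0 and 11.3 in these mice in the same order, and 33.7 in old-OSKM mouse 1. For adipocyte genes it was 13.8, 8.80 and 4.07, and 11.96 in old-OSKM mouse 1. The duct sum was lowest in old-OSKM mouse 4 and highest in young mouse 2. Fibroblast sums also moved with the groups, from 25.0 to 51.1 in young, 18.6 to 24.2 in old and 24.6 to 69.3 in old-OSKM mice. The old group was without overlap here as in Npas2, but in the opposite direction, lowest in these sums and highest in Npas2. Old and young mice were also without overlap in the sums of B and plasma cell genes (0.850 to 2.61 in young and 2.71 to 8.19 in old mice) and, narrowly, of T cell genes (0.592 to 0.755 and 0.760 to 1.62). In old-OSKM mice these sums were 3.71 to 13.5 and 0.748 to 5.15. Gene by gene, 0 of 6 B and plasma cell genes and 0 of 5 T cell genes were without overlap between old and young mice. For fibroblast genes it was 4 of 6, and 2.71% of all genes were without overlap. Between old-OSKM and old mice it was 3 of 6 fibroblast genes, beside 1.73% of all genes. The part of these cell types in the values of the clock genes was not tested.

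The library kit does not mark strand, so reads from bases that genes on opposite strands share cannot be told apart by strand. Overlaps were counted over whole genes, introns included, and not over exons alone. Dbp overlaps Sphk2 on the opposite strand by 737 bases, and Sphk2 was at 1.78, 1.94 and 2.18 in young mouse 2, young mouse 4 and old-OSKM mouse 4 and at 1.14 to 1.54 in the others. Nr1d1 overlaps Thra on the opposite strand by 1075 bases, but Thra ranged only from 1.08 to 1.45 and was lowest in young mouse 2 and old-OSKM mouse 4. Cry2 lies opposite a non-coding gene, D930015M05Rik, which was at -0.46 in old-OSKM mouse 4, at -1.72 and -2.23 in young mice 2 and 4, and at -3.39 to -1.81 in the others. Per3 overlaps Camta1 on the same strand, and Camta1 was at -0.02 in old-OSKM mouse 4, at -0.09 and -0.67 in young mice 2 and 4, and at -0.65 to -0.25 in the others. The part of these overlaps in the values of the members was not tested. Arntl overlaps an antisense gene that is not among the genes used here.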

How the data were processed

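RNA of whole pancreas from 13 mice was rRNA-depleted, made into libraries with a kit that does not mark strand, and sequenced with paired ends. The authors aligned reads with STAR 2.3.0e to mm10, estimated RPKM with Casper, summed it per Entrez gene, took log2 and quantile normalized, and these deposited log2 values of 23366 genes were used as they are. Sorted values of the mice differ by at most 0.0116. The table holds no counts, so depth per mouse and counting error are unknown, the study's correction for the reads in each sample could not be made, and precision rests on the 4, 5 and 4 mice per group.

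Groups come from the sample labels. Mouse numbers follow accession order and pair nothing. All 13 mice were fitted together with limma 3.58.1 (R 4.3.3, lmFit and eBayes, default settings), with group as the only variable, and p-values were adjusted over all genes by the Benjamini-Hochberg method. Calls needed more than a 1.5-fold change together with a raw p under 0.01. The p-values measure the spread between mice. Alternatives were other normalizations, pseudocounts of 1 and 0.1, filters on mean level, groups fitted in pairs, robust eBayes with a trend, a covariate for the run of sample identifiers, exact permutation tests and leaving out each mouse. Figures were drawn with matplotlib 3.10.9.

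The 10 members and the gene lists were chosen with earlier results of these data known. All members are named, with the accessory genes past the thresholds, the 2 output genes with the smallest raw p in each of the first 2 comparisons, the 2 immediate early genes with the smallest raw p between old-OSKM and old mice, and the 5 genes at each end of the ranking with Arntl, except for some items that are not reported here. Other accessory and output genes, and the genes that overlap members, were named after their values were seen. Promoter sequences are from RefSeq (GRCm38.p6). No window was given for Per2.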

Additional observations from a re-analysis of the deposited data

Results flagged for a closer look

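Within groups of 4 or 5 mice, 1 mouse was far from all others of its group in 7 of the 30 combinations of gene and group, by the gap to its nearest neighbour over the range of the group. Chance sets apart about 1 in 20 such groups, and the genes share their mice, so these results are not separate from each other. In the old-OSKM group, mouse 4 was the lowest for Arntl (-2.72, the 3 others between 0.98 and 1.67), Clock (1.07, the others between 1.81 and 1.87) and Npas2 (-4.64, the others between -0.67 and -0.11). The same mouse was the highest for Per1 (2.78, the others between 0.08 and 0.28), Per2 (2.26, the others between -1.47 and -0.97) and Cry2 (1.79, the others between 0.13 and 0.38). In the old group, mouse 4 was the lowest for Dbp (-0.68, the 4 others between -0.07 and 0.18). Young mice 2 and 4, which resembled old-OSKM mouse 4 in Arntl and Dbp, could not be set apart in this way, since each had the other near it.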

How the results depend on the processing

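No paired analysis was possible because the labels give no replicate numbers, and the mouse numbers only follow accession order. The alternative without young mice 2 and 4 and old-OSKM mouse 4 was chosen after seeing the data. Values are log2 differences or numbers of members past the thresholds.

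Between old and young mice, 0 members passed with all mice, 1 with a pseudocount of 1, 1 by the exact permutation test, 0 to 1 when each mouse was left out (1 without old-OSKM mouse 4) and 2 without the 3 mice. Between old-OSKM and old mice it was 0 with all mice, 1 by the exact permutation test, 0 to 0 with each mouse left out and 1 without the 3 mice. Between old-OSKM and young mice it was 0 throughout the alternatives run. With a pseudocount of 1 the member was Npas2 (0.67, adjusted p by limma 0.456), and over the settings of old minus young the adjusted p of Npas2 ran from 0.173 (without the 3 mice) to 1 (without old mouse 3 or old mouse 5).

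Directions turned between old and young mice without young mouse 4 for Clock (-0.028) and Cry1 (-0.047) and without young mouse 2 for Cry1 (-0.11). Without the 3 mice they turned for Clock (-0.16), Per2 (0.44), Per3 (0.024), Cry1 (-0.42) and Nr1d1 (0.64). Between old-OSKM and old mice, directions turned for Per2 (-0.56), Per3 (-0.38), Cry2 (-0.18) and Dbp (-0.054), both without old-OSKM mouse 4 and without the 3 mice. When single mice were left out, their highest values were 0.69, 0.92, 0.37 and 1.46, each without old-OSKM mouse 1. Cry1, at 0.02 with all mice, turned with a covariate for the run of sample identifiers (-0.030), and lay between -0.15 and 0.24 when each mouse was left out, being below 0 without old mouse 2 (-0.005), old mouse 5 (-0.09), old-OSKM mouse 1 (-0.02) or old-OSKM mouse 2 (-0.15). The leave-out ranges of old minus young were -0.028 to 0.20 for Clock and -0.11 to 0.30 for Cry1. The cause was not tested. Of the single differences under an alternative, 446 kept direction and side of the thresholds, 21 turned and 7 passed only there.

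Of the pairs of members, 0 passed by Pearson's r, 1 by Spearman's rho, and 0 to 2 when each of the 10 mice was left out. They were Cry1 and Nr1d1 without old mouse 1 or old-OSKM mouse 1 (adjusted permutation p 0.0432 and 0.0477), and Arntl and Dbp without old-OSKM mouse 1 (0.0477). With 8410 genes of mean above 0 as the reference, 4 members in place of 7 lay above the 99th percentile of spread, since 3 members fall below that mean.

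Depth per mouse is unknown, so the error of low values such as Npas2 at -4.64 cannot be given. The arms are small, wide intervals leave differences of several log2 units possible for Arntl, Npas2 and Dbp, and a single organ at an unstated hour was sampled once per mouse.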
